A study of Mus musculus with 7 samples.

Results

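The Ugt1a locus of the mouse was examined for which of its alternative first exons lay in accessible chromatin of the liver. The 8 genes were chosen by name, Ugt1a1, Ugt1a2, Ugt1a5, Ugt1a6a, Ugt1a6b, Ugt1a7c, Ugt1a9 and Ugt1a10, out of 22365 protein-coding genes in the annotation. Hotspots, which are stretches where nuclease cleavage tags cluster above background, were taken over these genes with 20 kb on either side. This window, chr1:89931963-90136577 of mm9, is 205 kb long and held 26 of the 94491 regions obtained by merging the hotspots of 3 nucleases.

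Livers came from male C57BL/6 mice, 8 weeks old, and no animal carried a transgene or received an agent according to the labels. Benzonase and Cyanase were applied to pulverized frozen tissue, with 1 sample at each of 0.25, 1 and 4 U per enzyme, and DNase I was applied to nuclei purified from fresh tissue, which the labels list as 1 sample, although the header of its list names a pool and the study describes combined replicates. Enzyme and tissue preparation therefore changed together between DNase I and the other nucleases, and their contributions cannot be told apart. Each nuclease is represented by 1 list of hotspots called on pooled tags, with positions only, so replicates cannot be compared and the number of tags in a hotspot is unknown. The lists held 60910 Benzonase, 57675 Cyanase and 72286 DNase I hotspots. The study reports fewer for each nuclease, so the lists are not the sets it counted. Whole liver holds several cell types, and a hotspot does not tell in which of them the chromatin was open. A transcription start site (TSS) of 6 of 6 hepatocyte genes (Alb, Apoa1, Ttr, Serpina1a, Tat and Cps1) lay in a hotspot of every nuclease. This held for 0 of 4 genes of B cells, T cells, muscle and neurons (Cd79a, Cd3e, Myod1 and Neurod1). Any protein-coding transcript of a gene was counted, and under this rule 46.1% of all protein-coding genes had a TSS in a hotspot of all 3 nucleases.

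UDP-glucuronosyltransferases attach glucuronic acid to bilirubin, hormones, drugs and food toxins, which makes them soluble enough to be excreted. At the Ugt1a locus each enzyme is made from its own first exon, which encodes the part that binds the substrate, spliced to a common set of exons that encode the part that binds UDP-glucuronic acid. Each first exon has a promoter of its own, so that the choice of promoter decides which enzyme a cell makes, and in liver the product of Ugt1a1 is known as the enzyme that conjugates bilirubin.

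The promoters of the first exons are shown because the comparison between nucleases turns on them. Each sequence runs from 250 bases before to 50 bases after the start of the longest coding transcript of the gene in GENCODE release M1, was read from mm9 on the plus strand, on which all 8 genes lie, and is written 5′ to 3′. Capitals mark matches to the motifs described together with base composition, and sequences without capitals hold none of them. The 4 promoters marked by all 3 nucleases come first. They are Ugt1a1 (chr1:90108284-90108583), Ugt1a5 (chr1:90062337-90062636), the start that Ugt1a6b and Ugt1a6a share (chr1:89999577-89999876) and Ugt1a9 (chr1:89967125-89967424).
Ugt1a1: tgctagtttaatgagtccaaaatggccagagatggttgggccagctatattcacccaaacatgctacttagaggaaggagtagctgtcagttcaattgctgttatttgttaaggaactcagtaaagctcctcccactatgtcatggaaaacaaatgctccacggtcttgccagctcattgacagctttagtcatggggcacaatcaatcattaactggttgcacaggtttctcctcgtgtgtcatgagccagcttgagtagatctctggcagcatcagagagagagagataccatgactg
Ugt1a5: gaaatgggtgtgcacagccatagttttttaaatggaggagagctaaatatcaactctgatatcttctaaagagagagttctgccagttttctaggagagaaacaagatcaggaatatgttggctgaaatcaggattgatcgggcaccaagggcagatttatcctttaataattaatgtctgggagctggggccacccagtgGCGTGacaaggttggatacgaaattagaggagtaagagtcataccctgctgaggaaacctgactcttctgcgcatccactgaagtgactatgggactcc
Ugt1a6b and Ugt1a6a: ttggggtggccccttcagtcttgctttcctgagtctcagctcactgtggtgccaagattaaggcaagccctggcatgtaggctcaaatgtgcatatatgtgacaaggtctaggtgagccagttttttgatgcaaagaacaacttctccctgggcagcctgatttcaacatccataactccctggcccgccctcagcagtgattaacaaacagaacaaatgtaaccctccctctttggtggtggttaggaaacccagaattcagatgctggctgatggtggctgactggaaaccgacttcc
Ugt1a9: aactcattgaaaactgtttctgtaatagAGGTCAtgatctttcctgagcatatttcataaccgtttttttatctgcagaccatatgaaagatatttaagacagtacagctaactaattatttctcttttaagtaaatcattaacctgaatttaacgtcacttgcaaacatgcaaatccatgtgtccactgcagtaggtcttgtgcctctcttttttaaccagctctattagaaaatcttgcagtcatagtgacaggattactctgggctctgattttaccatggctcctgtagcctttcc

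A further start of Ugt1a6a (chr1:90031134-90031433) was marked by Cyanase alone and is shown for comparison with the shared start, which it matched at 90.7% of aligned bases.
Ugt1a6a further start: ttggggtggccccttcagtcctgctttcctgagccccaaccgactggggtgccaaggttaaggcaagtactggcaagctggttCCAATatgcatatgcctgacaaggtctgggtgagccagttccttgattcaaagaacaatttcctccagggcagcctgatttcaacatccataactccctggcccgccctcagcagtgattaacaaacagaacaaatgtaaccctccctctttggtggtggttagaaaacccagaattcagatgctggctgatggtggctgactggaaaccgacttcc

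The promoters of Ugt1a2 (chr1:90096926-90097225), Ugt1a7c (chr1:89991389-89991688) and Ugt1a10 (chr1:89951736-89952035) were marked by none of the nucleases.
Ugt1a2: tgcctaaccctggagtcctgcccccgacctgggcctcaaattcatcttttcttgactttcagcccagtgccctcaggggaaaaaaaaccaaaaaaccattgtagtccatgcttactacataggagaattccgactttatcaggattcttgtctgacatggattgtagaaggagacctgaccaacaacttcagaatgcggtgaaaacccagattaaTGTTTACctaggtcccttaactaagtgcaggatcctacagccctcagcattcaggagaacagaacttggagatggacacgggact
Ugt1a7c: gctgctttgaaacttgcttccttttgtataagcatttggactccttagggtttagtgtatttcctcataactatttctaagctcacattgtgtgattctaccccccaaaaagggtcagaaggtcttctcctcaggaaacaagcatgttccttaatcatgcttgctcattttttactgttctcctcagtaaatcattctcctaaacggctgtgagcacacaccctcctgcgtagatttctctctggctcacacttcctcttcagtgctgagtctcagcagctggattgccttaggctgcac
Ugt1a10: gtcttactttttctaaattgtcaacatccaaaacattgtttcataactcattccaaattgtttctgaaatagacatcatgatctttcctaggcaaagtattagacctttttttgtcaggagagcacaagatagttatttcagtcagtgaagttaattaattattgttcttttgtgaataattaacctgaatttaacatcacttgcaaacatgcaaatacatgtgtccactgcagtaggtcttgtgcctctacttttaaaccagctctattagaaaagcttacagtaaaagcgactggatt

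A first exon was scored as marked when its TSS lay inside a hotspot. Of the 8 genes, 5 were marked by Benzonase, 5 by Cyanase and 5 by DNase I, and they were the same genes, Ugt1a1, Ugt1a5, Ugt1a6a, Ugt1a6b and Ugt1a9. When hotspots narrower than the lower quartile of their list were left out, DNase I marked 3, without Ugt1a6a and Ugt1a6b, and the other nucleases still marked 5 each. Because Ugt1a6a and Ugt1a6b share their start under this rule, the 5 genes correspond to 4 stretches of open chromatin. Over all protein-coding genes, 54.1% were marked by Benzonase, 52.6% by Cyanase and 44.0% by DNase I, and 42.7% by all 3. A further 13.2% of all genes were marked by 1 or 2 nucleases and 44.1% by none. With only 8 genes, 5 marked by all 3 nucleases and 3 by none, the share of marked genes is not a finding against this background, and what the lists show is which first exons they were. Of the unmarked genes, Ugt1a7c and Ugt1a2 lay between marked ones along the chromosome, and Ugt1a10 lay upstream of all of them.

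**Figure D1:**
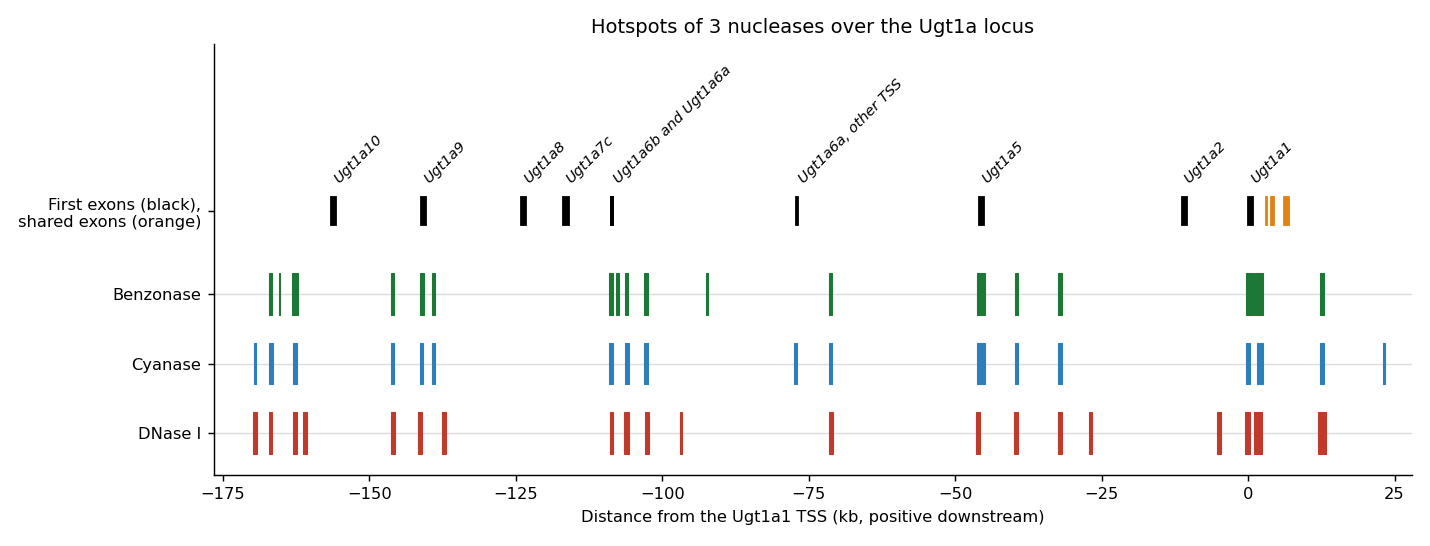
Hotspots of Benzonase, Cyanase and DNase I over the 205 kb window, plotted by distance in kb from the TSS of Ugt1a1, with first exons in black and the shared exons in orange. First exons shorter than 0.3 kb are drawn at that length. Ugt1a1, Ugt1a5, Ugt1a9 and the start shared by Ugt1a6b and Ugt1a6a have a bar of every nuclease, whereas Ugt1a2, Ugt1a7c, Ugt1a8 and Ugt1a10 have none.

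Ugt1a1 (ENSMUSG00000089960.1), the bilirubin-conjugating enzyme, starts at position 90108534 of chromosome 1 and has a first exon of 913 bp. The Benzonase hotspot at this start ran from 90108124 to 90109354, the Cyanase hotspot from 90108116 to 90108905 and the DNase I hotspot from 90108075 to 90108867. The upstream edges were close together, at 410, 418 and 459 bp before the TSS. The downstream edges were far apart, at 820 bp for Benzonase, 371 bp for Cyanase and 333 bp for DNase I. Benzonase accordingly covered 89.9% of the first exon, Cyanase 40.7% and DNase I 36.6%.

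Immediately downstream, in the intron between the first exon of Ugt1a1 and the first shared exon, lay the widest region of the window, chr1:90109458-90111135, with 1678 bp and hotspots of all 3 nucleases. Transcripts from every first exon are spliced across this intron, so the region cannot be assigned to Ugt1a1 by position alone.

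Ugt1a5 (ENSMUSG00000089943.1) starts at 90062587 and has a first exon of 892 bp. The Benzonase hotspot ran from 90062223 to 90063554 and covered 100% of the first exon. Cyanase had a pair of hotspots, from 90062183 to 90062918 over the TSS and from 90062998 to 90063563, which together covered 91.1% of the exon. The DNase I hotspot ran from 90062122 to 90062835, ended 248 bp after the TSS and covered 27.9%. The 3′ part of the exon thus lay in hotspots of both TACh enzymes (the name of the method for frozen tissue) and in none of DNase I.

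Ugt1a9 (ENSMUSG00000090175.1), which conjugates phenolic drugs, starts at 89967375 with a first exon of 879 bp. The Benzonase hotspot ran from 89967101 to 89967782, the Cyanase hotspot from 89967170 to 89967671 and the DNase I hotspot from 89966926 to 89967605. Benzonase covered 46.4% of the exon, Cyanase 33.8% and DNase I 26.3%. The DNase I hotspot reached 449 bp upstream of the TSS, compared with 274 bp for Benzonase and 205 bp for Cyanase.

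Downstream of the start, the order Benzonase, Cyanase, DNase I held at Ugt1a1, Ugt1a5 and Ugt1a9 alike. It is also the order over all marked genes, where the hotspot at the TSS reached a median of 657 bp downstream with Benzonase, 602 bp with Cyanase and 328 bp with DNase I. Most hotspots at the Ugt1a starts were narrower than the median over all marked genes. Their Benzonase hotspots were 682, 682, 1231 and 1332 bp wide at Ugt1a9, the shared Ugt1a6 start, Ugt1a1 and Ugt1a5, against a median of 1250 bp over all marked genes (quartiles 957 and 1637 bp). Their Cyanase hotspots were 502, 709, 790 and 736 bp wide in the same order, all under the lower quartile of 876 bp. At Ugt1a5 only the Cyanase hotspot over the TSS is counted, not the second of the pair. Their DNase I hotspots were 680, 486, 793 and 714 bp wide, all under the median of 852 bp. Those at Ugt1a1 and Ugt1a5 were above the lower quartile of 690 bp.

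Ugt1a6b (ENSMUSG00000090145.1) and Ugt1a6a (ENSMUSG00000054545.10) encode enzymes that conjugate small planar phenols, and their first coding exons of 858 bp are 97% identical. The longest coding transcripts of both genes begin at 89999827 with the same untranslated exon of 127 bp. The Benzonase hotspot there ran from 89999482 to 90000163, the Cyanase hotspot from 89999472 to 90000180 and the DNase I hotspot from 89999570 to 90000055. The 3 hotspots were centred on the start, and the DNase I hotspot, with 486 bp, was the narrowest. It reached 257 bp upstream and 228 bp downstream, less far on either side than the Benzonase hotspot (345 and 336 bp) and the Cyanase hotspot (355 and 353 bp). At Ugt1a1, Ugt1a5 and Ugt1a9, in contrast, DNase I reached farther upstream than the other nucleases. That is not the order over all marked genes, where the median upstream reach was 528 bp with Benzonase, 500 bp with Cyanase and 472 bp with DNase I.

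For Ugt1a6a the outcome depended on which start was taken. A second untranslated exon of 127 bp, annotated for Ugt1a6a alone, begins at 90031384. A Cyanase hotspot from 90031033 to 90031483 held this start, whereas the nearest Benzonase hotspot was 5599 bp and the nearest DNase I hotspot 5620 bp away. RefSeq promoter sequences (GRCm38.p6) were available for 7 of the 8 genes, all but Ugt1a6b, and each matched the mm9 window exactly. For Ugt1a6a the match fell on this second start. With the RefSeq starts, and the GENCODE start kept for Ugt1a6b, 4 of the 8 genes were marked by Benzonase, 5 by Cyanase and 4 by DNase I. Ugt1a6a was then the only one of the 8 genes on which the nucleases differed. The starts of transcripts that begin in the coding first exons were not marked, at 90003437 for Ugt1a6b, with the nearest hotspots 681, 655 and 560 bp away for Benzonase, Cyanase and DNase I, and at 90034953 for Ugt1a6a, with the nearest hotspots 2030, 2028 and 2051 bp away.

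The Ugt1a6 starts lie in duplicated sequence, and the study counted uniquely aligning tags. Within 500 bp of the shared start, 44.8% of 32-base stretches occurred once in the genome, and the share around the second Ugt1a6a start was also 44.8%. It was 83.2% around Ugt1a9, 98.2% around Ugt1a5 and 99.2% around Ugt1a1. Around the unmarked starts it was 83.1% at Ugt1a10, 87.0% at Ugt1a7c and 99.5% at Ugt1a2. These values are above those of the Ugt1a6 starts, but Ugt1a10 and Ugt1a7c are below Ugt1a5 and Ugt1a1. Over the window the share was 71.2% inside hotspots and 70.7% outside. With 25-base stretches it was 66.5% and 65.1%. The part of duplicated sequence in the difference between nucleases at the second Ugt1a6a start, or in the unmarked starts, was not tested.

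**Figure D2:**
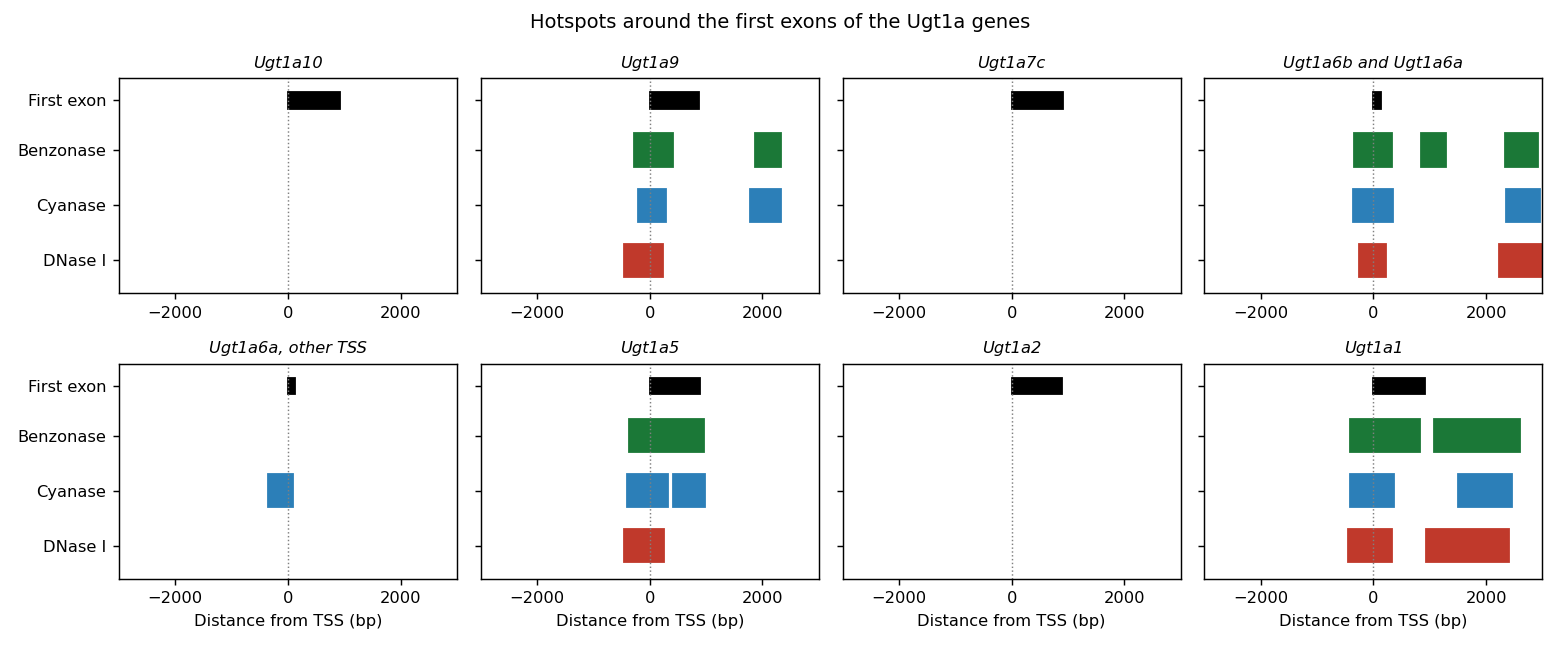
Hotspots within 3000 bp of each start, by distance from the TSS in bp, with the first exon of the transcript in black and 1 row per nuclease. The bars of the 3 nucleases begin close together at Ugt1a1 and Ugt1a5 and differ most in where they end downstream. The second start of Ugt1a6a has a Cyanase bar alone.

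The 3 unmarked genes were far from any hotspot rather than just outside one. Ugt1a2 (ENSMUSG00000090171.1) starts at 90097176, and its nearest Benzonase and Cyanase hotspots, those at the start of Ugt1a1, were 10948 and 10940 bp away. Its nearest DNase I hotspot, from 90103297 to 90103847, was 6121 bp downstream. Ugt1a7c (ENSMUSG00000090124.1) starts at 89991639, and its nearest hotspots of all 3 nucleases were those of the shared Ugt1a6 start, 7843, 7833 and 7931 bp downstream for Benzonase, Cyanase and DNase I. Ugt1a10 (ENSMUSG00000090165.2) starts at 89951986, and its nearest hotspots lay upstream, 5710 bp away with Benzonase, 5867 bp with Cyanase and 4016 bp with DNase I. In humans the enzymes UGT1A7 and UGT1A10 are known mainly from the gut rather than the liver.

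Ugt1a8, a further gene of the locus that was not on the list, starts at 89984388 and was also unmarked, with the nearest hotspot of any nuclease 12754 bp away. No hotspot of any nuclease lay in the 7.25 kb between the starts of Ugt1a8 and Ugt1a7c. The locus also holds 8 annotated pseudogenes (Gm15368 to Gm15374 and Gm15376), and 0 of them overlapped a hotspot. They are short, the hotspots of any single nuclease covered at most 7.10% of the window, and no share over all pseudogenes was taken.

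The exons that all 8 genes share also held no hotspot. They are short, hotspots covered 5.69 to 7.10% of the window depending on the nuclease, and no share over all exons was taken. The absence is therefore a description. Exons of 132, 88 and 220 bp, beginning at 90111619, 90112370 and 90112713, and the last exon, beginning at 90114702, held 0 hotspots of Benzonase, 0 of Cyanase and 0 of DNase I. Other genes in the window were not marked at their starts. Dnajb3, encoding a co-chaperone, had its nearest DNase I hotspot 974 bp away, and the longest coding transcript of Heatr7b1, just past the locus, 1717 bp away. The start of the longest transcript of an antisense gene, RP23-324B17.1, lay 4024 bp from the nearest hotspot of any nuclease.

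Similar first exons could differ in accessibility. The coding first exons of the 8 genes, 849 to 870 bp long, were compared by global alignment. The exon of the unmarked Ugt1a10 was 91.2% identical to that of the marked Ugt1a9, whereas their promoters were 61.6% identical. The exon of the unmarked Ugt1a2 was 81.6% identical to that of the marked Ugt1a5, with promoters at 45.4%, close to the values of other pairs of promoters here, such as 47.7% for Ugt1a5 and Ugt1a1. Ugt1a7c, unmarked, had an exon 80.8% identical to that of Ugt1a10 and 81.1% identical to that of Ugt1a9.

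Upstream of Ugt1a10, the first gene of the locus, lay a group of 5 regions between genes. In order along the chromosome they were marked by Cyanase and DNase I (chr1:89938745-89939370), by all 3 nucleases (chr1:89941376-89942010), by Benzonase alone (chr1:89943056-89943355), by all 3 (chr1:89945378-89946276) and by DNase I alone (chr1:89947245-89947970). The group lay in partly duplicated sequence, with 24.1%, 17.3%, 85.0%, 45.8% and 75.3% unique 32-base stretches in the same order. The start of Ugt1a10 itself was unmarked.

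Marked and unmarked promoters did not separate by base composition. GC content was 45.3% at Ugt1a1, 44.7% at Ugt1a5, 50% at the shared Ugt1a6 start and 36.3% at Ugt1a9, and 46.7% at Ugt1a2, 44.3% at Ugt1a7c and 32.7% at Ugt1a10. All of these are below the mean of 55.6% ± 11.9 (SD over 22360 promoters of protein-coding genes), and Ugt1a10 and Ugt1a9 stood at percentiles 2.46 and 5.54. No member promoter held more than 4 CpGs.

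The promoters were searched on both strands for short motifs, with positions counted from the TSS as +1, and those found at the longest coding transcripts of the 8 genes lay in 1 gene each. GCGTG, the core to which the Ah receptor binds, is held by 37.6% of all promoters and occurred at -49 to -45 in Ugt1a5 and, outside the 8 genes, at -55 to -51 in Ugt1a8. TGTTTAC, bound by forkhead factors, is held by 2.98% and occurred at -35 to -29 in Ugt1a2. AGGTCA, a half-site of nuclear receptors, is held by 14% and occurred at -222 to -217 in Ugt1a9, as well as at -206 to -201 and 13 to 18 at the Ugt1a6a start at 90034953. CCAAT is held by 37.5% and occurred only at further starts, at -167 to -163 in the second Ugt1a6a promoter, at -162 to -158 at the Ugt1a6a start at 90034953, and at -176 to -172 and -167 to -163 at the Ugt1a6b start at 90003437. TATAAA (13.5% of all promoters), TGACNNNGC, the core of the antioxidant response element (12.6%), and AGGTCA repeated with a spacer of 1 or 4 bases (0.0537% and 0.00894%) were found in none of the promoters of the 8 genes. These are matches of letters in these windows and not measured binding.

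Between the first exons, the locus held many further hotspots. Over the window, 18 Benzonase hotspots covered 6.26% of the bases, 19 Cyanase hotspots 5.69% and 20 DNase I hotspots 7.10%, against 1.81%, 1.66% and 1.95% of the genome. Merged, they gave 26 regions, of which 5 held an annotated Ugt1a start, 14 lay in introns, 6 between genes and 1 over an exon of Heatr7b1. The 62.8 kb between the shared Ugt1a6 start and that of Ugt1a5 held 7 Benzonase, 6 Cyanase and 6 DNase I hotspots. These counts include the hotspots over both starts. The 34.6 kb between Ugt1a5 and Ugt1a2 held 3, 4 and 4, including those over the Ugt1a5 start.

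Regions were classed by the nucleases that marked them. Common regions held a DNase I hotspot and at least 1 hotspot of Benzonase or Cyanase, DNase I unique regions held DNase I alone, and Benzonase-Cyanase unique regions lacked DNase I. In the window 15 of 26 regions were common (57.7%, 95% Wilson interval 38.9 to 74.5), against 45.4% of all regions. DNase I unique regions numbered 5 (19.2%, interval 8.51 to 37.9), against 28.3%, and Benzonase-Cyanase unique regions 6 (23.1%, interval 11 to 42.1), against 26.3%. The intervals cover counting error only and include the shares of all regions. Regions of 1 locus are not independent, so the intervals do not test a difference of the locus from the genome. All 3 nucleases marked 14 of the 26 regions.

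The 4 promoters marked by all 3 nucleases are common regions by definition. The other region with an annotated start, at the second Ugt1a6a start, was Benzonase-Cyanase unique. None of the 5 DNase I unique regions held an annotated Ugt1a start, and 4 of them were intronic, as were 14 of all 26 regions of the window. The shares over all DNase I unique regions of the genome were not taken. One, chr1:89970888-89971634, was centred 3886 bp downstream of the start of Ugt1a9, and another, chr1:90103297-90103847, had its centre at -4962 bp from the start of Ugt1a1. Among the 6 Benzonase-Cyanase unique regions, 3 were marked by Benzonase alone, 2 by Cyanase alone, including the second Ugt1a6a start, and 1 by both. The last one, chr1:89969156-89969707, was centred 2057 bp downstream of the start of Ugt1a9. A Benzonase hotspot without partner, chr1:90000678-90001121, lay 1073 bp downstream of the shared Ugt1a6 start.

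The central 150 bases of the DNase I unique region upstream of Ugt1a1 (chr1:90103497-90103646) and of the Benzonase-Cyanase unique region downstream of Ugt1a9 (chr1:89969357-89969506) are printed as examples of these classes. Both are given on the plus strand of mm9 with G and C in capitals. GC content was 34.7% in the first and 52.7% in the second, but 39.7% and 45.5% over their whole regions. The centres of all DNase I unique regions had 34.7 to 43.3%, with a mean of 37.7%. Those of all Benzonase-Cyanase unique regions had 46.7 to 63.3%, with a mean of 52.9%.
DNase I unique: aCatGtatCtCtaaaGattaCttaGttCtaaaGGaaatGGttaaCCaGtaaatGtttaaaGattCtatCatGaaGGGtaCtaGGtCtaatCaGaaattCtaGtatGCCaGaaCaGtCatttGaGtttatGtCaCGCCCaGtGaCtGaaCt
Benzonase-Cyanase unique: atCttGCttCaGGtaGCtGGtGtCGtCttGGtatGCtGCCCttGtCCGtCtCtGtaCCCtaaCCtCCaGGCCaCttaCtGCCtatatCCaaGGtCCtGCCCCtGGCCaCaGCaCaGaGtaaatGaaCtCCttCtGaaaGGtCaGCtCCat

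Over whole regions, GC content was 39.2% ± 1.96 (SD, n = 5 regions) for DNase I unique, 44.7% ± 2.88 (n = 15) for common and 49.6% ± 5.40 (n = 6) for Benzonase-Cyanase unique regions. The DNase I unique regions ranged from 36.1 to 41.5% and the Benzonase-Cyanase unique regions from 45.3 to 59.6%, without overlap, and the common regions ranged from 39.1 to 51.0%. Over all regions of the genome the same classes had 42.3% ± 5.21, 49.5% ± 6.87 and 54.7% ± 6.52, so the order at the locus is that of the genome and the values lie lower. Regions of 1 locus are not replicates, and no test was made. Against the 5 kb on either side, 6 of 6 Benzonase-Cyanase unique regions, 10 of 15 common regions and 1 of 5 DNase I unique regions were higher in GC content. The corresponding shares over all regions of the genome are not given here.

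Pooled over the common regions, the stretches covered by DNase I alone were lower in GC content, and those covered without DNase I were not higher. Stretches in hotspots of all 3 nucleases, 8383 bp in sum, had a GC content of 45.4%. Stretches in DNase I hotspots alone, 1978 bp, had 40.7%, and stretches in Benzonase or Cyanase hotspots but no DNase I hotspot, 2233 bp, had 45.4%. The lower value of DNase I stretches held in most common regions with both kinds of stretch, but not in each. In the intronic region chr1:90002061-90002877, stretches of DNase I alone had 49.0% and 49.5%, against 40.8% for the stretch of all 3. In chr1:90068539-90069188 the 135 bp of DNase I alone had 48.9%, against 43.1%. Promoters differed too. At Ugt1a9 the 175 bp that DNase I alone covered upstream had 48.0%, above the 44.7% of the stretch covered by all 3, and at Ugt1a5 and Ugt1a1 the corresponding stretches of 61 and 41 bp had 31.1% and 34.1%.

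**Figure D3:**
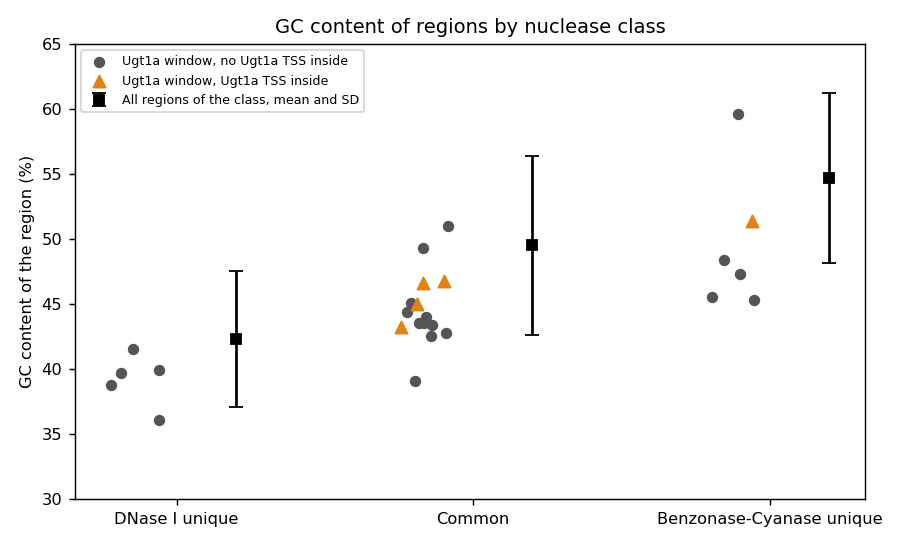
GC content in percent of the 26 regions of the Ugt1a window by nuclease class, with triangles for regions that hold an annotated Ugt1a start, circles for the others, and squares with bars for the mean and SD of all regions of the class in the genome. The DNase I unique regions lie between 36.1 and 41.5% and the Benzonase-Cyanase unique regions between 45.3 and 59.6%.

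The remaining genes of glucuronidation and bilirubin metabolism were scored from a list of 34 genes, 33 of which were found in the annotation, with a gene counted as marked when the TSS of any of its protein-coding transcripts lay in a hotspot. Of these, 29 were marked by Benzonase, 26 by Cyanase and 30 by DNase I, and 25 by all 3. Under the same rule 57.4%, 55.7% and 47.4% of all protein-coding genes were marked, and 46.1% by all 3. The list was compiled by pathway, many of its genes are known to act in liver, and its share is a description.

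All 3 genes that supply UDP-glucuronic acid were marked by every nuclease, namely Ugp2 and Ugdh, which make the sugar donor, and Slc35d1, which carries nucleotide sugars into the endoplasmic reticulum. The same held for the 4 genes of haem breakdown, the haem oxygenases Hmox1 and Hmox2 and the biliverdin reductases Blvra and Blvrb. It also held for the 9 regulators, among them Nr1i2 and Nr1i3, which encode the xenobiotic receptors PXR and CAR, and Ahr and Hnf4a. Among the 5 transporters, Slco1b2, Abcc2 and Abcc3 were marked by all 3 nucleases, Slco1a1 by Benzonase and DNase I, and Slco1a4 by DNase I.

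The 12 other UDP-glucuronosyltransferases were partly unmarked, as were the Ugt1a genes and protein-coding genes in general. Benzonase marked 9, Cyanase 7 and DNase I 9 of them, and 6 were marked by all 3 nucleases. Ugt2a1, an enzyme of the olfactory epithelium, and Ugt2b38 were marked by none. Ugt2a3 and Ugt2b5 lacked a Cyanase hotspot, Ugt2b37 had a DNase I hotspot alone, and Ugt8a, which makes the galactolipids of myelin, lacked DNase I. These genes thus included some on which the nucleases differed, as did 13.2% of all genes at their longest coding transcripts. The Ugt1a genes included none, either at their longest coding transcripts or when any annotated TSS was counted. With the RefSeq start Ugt1a6a was one, and the contrast was not tested.

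**Figure D4:**
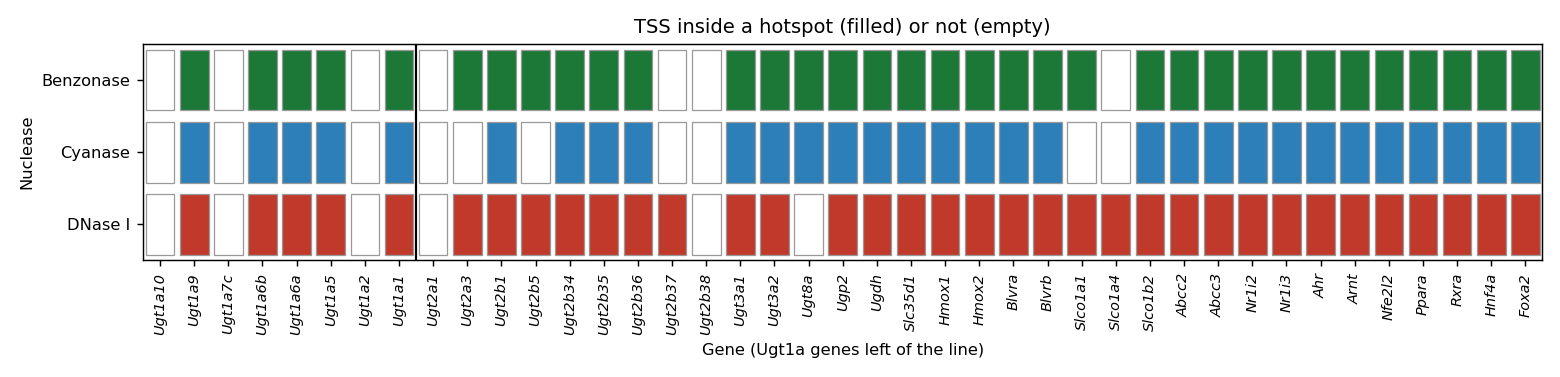
Genes with a TSS inside a hotspot (filled) or outside (empty), with 1 row per nuclease, the 8 Ugt1a genes left of the line, scored at their longest coding transcript, and 33 further genes right of it, scored at any protein-coding transcript. The filled cells of the Ugt1a genes are the same in the 3 rows, 5 of 8.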

How the data were processed

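Pulverized mouse liver was digested with Benzonase or Cyanase, and liver nuclei with DNase I, and size-selected fragments were sequenced. Eland or Bowtie was used by the authors for alignment to mm9, and hotspots were called on pooled tags, 1 pool per nuclease, with a false discovery rate of 0%. The tag density threshold was set at the mode, and its value and the read length are not given in the sources used here. The deposited lists, 1 per nuclease, hold 3 columns (chromosome, start, end) and per the file headers are input adjusted and unmerged. There were 0 columns of other samples.

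Positions were compared with the mm9 genome and GENCODE release M1, and printed coordinates count from 1. The file headers leave the end of a hotspot uncertain by 1 base. A TSS was marked when it lay inside a hotspot, at the transcript with the longest coding sequence of a gene, with the longer spliced length deciding ties. Genes of the glucuronidation and bilirubin list and of the cell types were scored at any protein-coding transcript. Hotspots overlapping by at least 1 bp were merged into regions. Uniqueness was the share of 25-base or 32-base stretches found once in the genome on either strand. Identity was taken from global alignments. No test was made across regions or genes, because 1 pooled list per nuclease leaves no spread between samples. Merging and TSS scoring were tested on simulated data, where 600 of 600 regions and 600 of 600 starts were recovered. Alternatives were other TSS rules, overlap rules, flanks and widths, planned, and RefSeq starts, chosen after seeing the data. The genes named were the 8 members, the other genes of the window and the list of glucuronidation and bilirubin genes. Of the planned list and motifs, 1 gene and 1 motif are not reported here. Members and lists were chosen with earlier results of these data known. Python 3.11.15, numpy 2.4.6, scipy 1.17.1, Biopython 1.88, numba 0.67.0, pysam 0.24.0 and matplotlib 3.10.9 were used.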

Additional observations from a re-analysis of the deposited data

How the results depend on the processing

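Of 63 alternative values, 52 stayed within the limits set for no change. With hotspots narrower than the lower quartile of their list left out, DNase I marked 3 of the 8 genes, because the hotspot at the shared Ugt1a6 start was lost, there were 2 Benzonase-Cyanase unique regions, and the covered share of the window was 5.30% for Benzonase, 4.63% for Cyanase and 6.71% for DNase I. With flanks of 50 kb there were 23 common regions, and the covered share was 8.98%, 8.05% and 8.81%. Without flanks it was 5.31% for Cyanase and 6.38% for DNase I. Scoring a hotspot within 500 bp of the TSS, over the 2 kb upstream, by its midpoint within 1 kb, or at any annotated TSS left the same 5 genes marked by each nuclease. With RefSeq starts, chosen after seeing the data, the counts were 4, 5 and 4. No paired analysis was possible because each nuclease has 1 pooled list and no result comes from a test. For the same reason no replicate could be left out. Depth per hotspot is unknown, so an unmarked start may hold tags below the threshold of the hotspot caller.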
